A study of Mus musculus with 8 samples.

Results

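The miRNAs described are the members of the rapidly evolving testis miRNA group related to miR-506, without its miR-465 branch, measured in mouse sperm by small RNA sequencing. They were picked by a rule on names that uses no count, as all listed arms of miR-201, miR-463, miR-470, miR-471, miR-547, miR-741, miR-742, miR-743a and b, miR-871, miR-878, miR-880, miR-881, miR-883a and b, and miR-890. This gave 23 of 387 mature miRNAs in the count table, 12 from 3p arms and 11 from 5p arms of 13 hairpins. No count was analysed here for miR-201, miR-547 and miR-890, nor for miR-742-3p, miR-880-5p and miR-881-5p. The sperm came from C57BL/6 mice, adults of 2 months, of the parental generation (F0), in groups named Trained and Exposed with 4 libraries each. The treatments were related to smell, the count table calls the first group AceTrained, and the labels used here describe neither treatment further. An untreated group is not among the libraries used. The labels do not tell whether each library is from a different mouse, so every p-value here reflects variation among libraries, some or all of which may be technical.

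A miRNA hairpin is cut to a short duplex whose strands are named by the arm they come from, 5p or 3p. The strand kept in an Argonaute protein represses messenger RNAs that pair with its seed, the bases 2 to 8. The miR-506 group is a large miRNA cluster of the X chromosome between Slitrk2 and Fmr1 that differs widely between mammals, is expressed mainly in testis and germ cells, and holds members that stay active while the sex chromosomes are silenced in meiosis.

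The 13 hairpins lie on the minus strand of the X chromosome within 37.3 kb, from 66776757 to 66814025 (GRCm38.p6, RefSeq), between Slitrk2, which ends at 66661402, and Fmr1, which starts at 68678536. None of the 13 overlapped a gene other than a miRNA gene in the GENCODE annotation of GRCm38, so they are intergenic there. The 6 hairpins of miR-465 follow from 66822656 to 66839125. A mature sequence was found in RefSeq (GRCm38.p6) for all 23 members. The hairpins that carry the most abundant members and the clearest arm pairs are shown first, with the mature arms in capitals. The 5p arm of Mir881 is shown although its count was not analysed here. Mir881 is at chrX:66801944-66802021, Mir743b at chrX:66777256-66777332 and Mir871 at chrX:66810428-66810504, all on the minus strand.
Mir881: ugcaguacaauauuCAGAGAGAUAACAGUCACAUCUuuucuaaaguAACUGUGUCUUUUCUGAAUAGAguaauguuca
Mir743b: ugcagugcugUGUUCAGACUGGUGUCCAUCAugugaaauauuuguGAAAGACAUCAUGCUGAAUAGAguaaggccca
Mir871: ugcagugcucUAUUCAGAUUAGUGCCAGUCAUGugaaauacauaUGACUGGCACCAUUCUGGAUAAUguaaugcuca

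The mature sequences below, written 5′ to 3′ with the seed in capitals, are those of the most abundant members and of the members that share a seed or contrast by arm. Members with the same seed stand together.
miR-743b-3p: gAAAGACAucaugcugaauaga
miR-743a-3p: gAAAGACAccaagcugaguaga
miR-871-5p: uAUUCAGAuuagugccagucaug
miR-743a-5p: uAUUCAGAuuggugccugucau
miR-883a-3p: uAACUGCAacagcucucaguau
miR-883b-3p: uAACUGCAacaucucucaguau
miR-881-3p: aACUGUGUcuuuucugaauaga
miR-871-3p: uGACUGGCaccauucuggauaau
miR-470-5p: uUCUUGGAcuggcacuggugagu
miR-470-3p: aACCAGUAccuuucugagaaga
miR-878-5p: uAUCUAGUuggaugucaagaca
miR-878-3p: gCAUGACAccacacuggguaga
miR-741-3p: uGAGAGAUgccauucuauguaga
miR-471-3p: uGAAAGGUgccauacuauguau
miR-471-5p: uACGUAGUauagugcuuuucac
miR-880-3p: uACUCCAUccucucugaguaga
miR-463-5p: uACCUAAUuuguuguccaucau
miR-463-3p: uGAUAGACaccauauaagguag
The 23 members carry 20 different seeds, and 3 seeds are shared by a pair of members each. AAAGACA is the seed of miR-743a-3p and miR-743b-3p, AUUCAGA that of miR-743a-5p and miR-871-5p, and AACUGCA that of miR-883a-3p and miR-883b-3p. None of the 20 seeds occurred in another of the listed miRNAs that had a RefSeq sequence (310 of 387, these members included). With positions counted from the 5′ end, miR-883a-3p and miR-883b-3p differ at 1 of 22 bases (G12U), and miR-743b-3p and miR-743a-3p at 3 (U9C, U12A and A18G). miR-871-5p and miR-743a-5p differ at 2 of the 22 bases they have in common (A11G and A17U). How reads were divided between such near-identical miRNAs is not given in the sources used here, so the levels within these pairs are uncertain.

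Library totals ran from 239664 to 261903 counts in Trained and from 193013 to 254944 counts in Exposed, and 1 read equals 3.82 to 5.18 counts per 1000000 counts of the library (CPM). The totals cover listed miRNAs only and are a small fraction of the sequencing depth given in the labels. All 5 miRNAs of a sperm list (miR-34b, miR-34c and miR-449a arms) were present, at a summed 125749 to 143656 CPM in Trained, against 129244 to 134812 CPM in Exposed. Most of that sum was miR-34c-5p, which was lowest in Trained 3 (97223 CPM). In contrast, miR-34b-5p was highest of the 8 libraries in Trained 3 (15655 CPM) and lowest in Exposed 2 (4715 CPM). For somatic testis cells, miR-202-5p had 4.79 to 16.5 CPM over the 8 libraries. Of miRNAs of other cells, the red blood cell and leukocyte sums were highest in Trained 3. The striated muscle, stroma and epithelial sums were highest in Exposed 2. The 4 listed of 6 red blood cell miRNAs summed to 2671, 242, 11599.7 and 3075 CPM in Trained 1 to 4, against 967, 229.8, 3158 and 4134 CPM in Exposed 1 to 4. The 4 listed of 5 striated muscle miRNAs summed to 1853, 1339, 1298 and 1644 CPM in Trained 1 to 4, against 2121, 3078, 1989 and 1736 CPM in Exposed 1 to 4. They did not move together. In Exposed 2 miR-1a-3p (1800 CPM), miR-206-3p (694 CPM) and miR-133a-3p (71.8 CPM) were highest of the 8 libraries. There miR-499-5p (512 CPM) was lowest. The 4 listed of 6 leukocyte miRNAs summed to 1013 to 5139 CPM in Trained, highest in Trained 3, against 938 to 1517 CPM in Exposed, with miR-223-3p listed at 0 in Trained 2. Stroma and smooth muscle miRNAs (4 of 5 listed) summed to 7243 to 8524 CPM in Trained and 7989 to 15409 CPM in Exposed. Epithelial miRNAs (5 of 5) summed to 1844 to 2459 CPM in Trained and 1993 to 3509 CPM in Exposed. Both sums were highest in Exposed 2. Most of the stroma sum was miR-143-3p, while miR-199a-3p was highest in Trained 3, at 126 CPM. Among the epithelial miRNAs, miR-141-3p was highest in Trained 1 (31.9 CPM) and miR-429-3p in Exposed 4 (31.1 CPM). The part of these other cells in the results below was not tested, and in bulk samples fewer cells of a type and less RNA per cell cannot be told apart.

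The family made up a large part of sperm miRNA, and its share did not separate the groups. It held 18.4, 15.6, 12.2 and 18.4% of counts in Trained 1 to 4, against 14.6, 19.2, 15.3 and 16.7% in Exposed 1 to 4. The lowest share was in Trained 3 and the highest in Exposed 2, and the ranges of the groups overlapped. The mean was 16.2% ± 2.94 in Trained and 16.4% ± 2.04 in Exposed (SD, n = 4 each), a difference of -0.29 percentage points. Leaving out 1 library at a time moved the difference both ways. It was -1.03 points without Trained 1, -0.11 without Trained 2, 1.03 without Trained 3 and -1.04 without Trained 4. It was -0.91 without Exposed 1, 0.62 without Exposed 2, -0.68 without Exposed 3 and -0.18 without Exposed 4. Without both Trained 3 and Exposed 2 it was 1.94, but these were picked after their extreme shares were seen. The miR-465 branch beside it varied less as a sum, at 12.3% to 14.3% of counts in Trained and 12.9% to 13.8% in Exposed. Its arms did not move together. miR-465b-3p, like the family, was lowest in Trained 3 (6361 CPM) and highest in Exposed 2 (12834 CPM). miR-465b-5p, the most abundant of the branch, was lowest in Exposed 2 (57822 CPM) and highest in Trained 2 (74343 CPM).

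A single arm supplied about as many reads as all the others together. miR-881-3p ranked 2 of 387 miRNAs by mean level over all libraries. It stood at 99661, 77331, 54841 and 101016 CPM in Trained 1 to 4, against 71339.7, 103849, 78994 and 89383 CPM in Exposed 1 to 4. Trained 3 was the lowest and Exposed 2 the highest of the 8 libraries, and the groups overlapped. It made up 50.9% ± 4.63 of family counts in Trained and 52.1% ± 2.29 in Exposed (SD, n = 4 each). Its level averaged 83212 ± 21810.5 CPM in Trained, against 85891 ± 14071 CPM in Exposed (SD, n = 4 each, log2 fold change -0.05, SE 0.20). Without it the family held 7.83% ± 0.777 of counts in Trained and 7.85% ± 0.654 in Exposed (SD, n = 4 each).

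**Figure D1:**
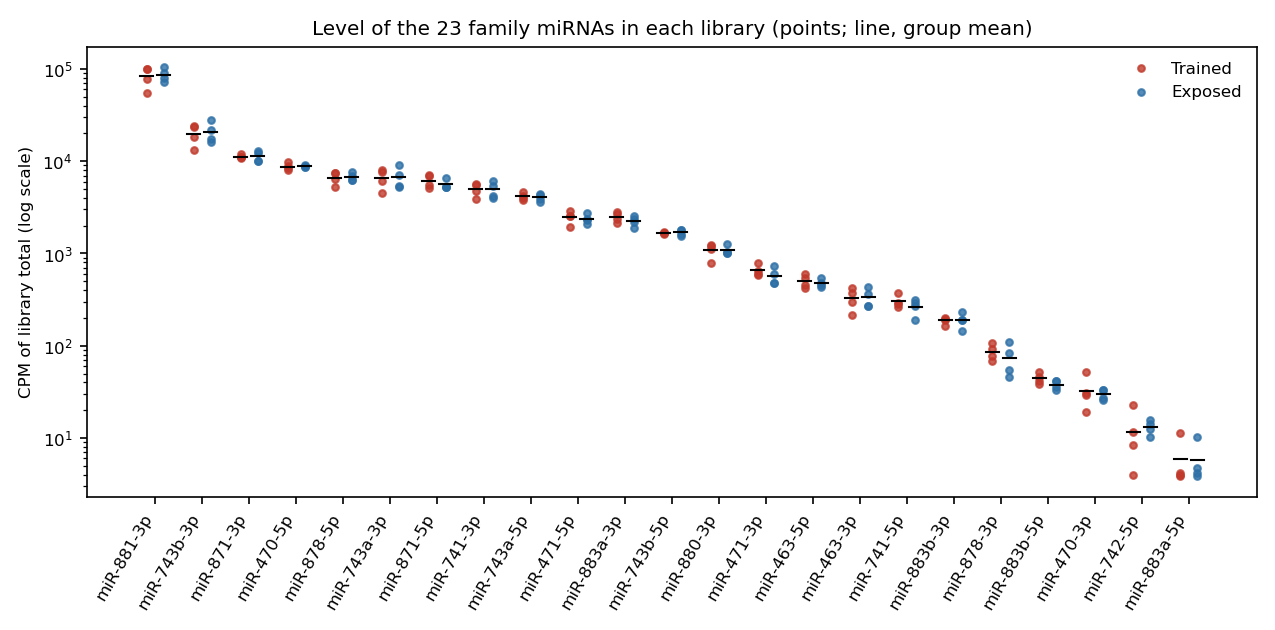
Level of each of the 23 members in CPM of the library total (log scale), 4 Trained (left, red) and 4 Exposed (right, blue) libraries per miRNA, with a line at the group mean. Members span from 84552 CPM for miR-881-3p to 5.83 CPM for miR-883a-5p, and the groups overlap for all 20 tested members.

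miR-743b-3p was the second of the family, with rank 12 of all miRNAs. It stood at 23784, 18413, 13127 and 24084 CPM in Trained 1 to 4, against 15962, 27889, 17286 and 21708 CPM in Exposed 1 to 4. Its seed partner miR-743a-3p, which in mouse neuronal cells is known to target the mitochondrial enzyme gene Mdh2, stood at 8089, 6126, 4479 and 7673 CPM in Trained 1 to 4, against 5275, 9134, 5444 and 7041 CPM in Exposed 1 to 4. Both were lowest in Trained 3 and highest in Exposed 2, as miR-881-3p was. Summed over their shared seed AAAGACA, they reached 31874, 24539, 17606 and 31757 CPM in Trained 1 to 4, against 21237, 37022, 22730.5 and 28749 CPM in Exposed 1 to 4. The fold changes of miR-743b-3p (log2 fold change -0.06, SE 0.23) and miR-743a-3p (log2 fold change -0.03, SE 0.23) were smaller than this spread. The 95% interval of miR-743b-3p ran from -0.58 to 0.46 on the log2 scale.

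The miR-871 hairpin gave both arms at high level. miR-871-3p stood at 10824, 11251, 11924 and 10978 CPM in Trained 1 to 4, against 12386, 10091, 12995 and 10082 CPM in Exposed 1 to 4. Here Exposed 3 was highest and Exposed 4 lowest, with Trained 3 the highest of the Trained libraries. miR-871-5p stood at 5489.9, 7005, 6884 and 5182 CPM in Trained 1 to 4, against 6648, 5318, 5252 and 5305 CPM in Exposed 1 to 4. Its mean was 6140.3 ± 938 CPM in Trained, against 5631 ± 679 CPM in Exposed (SD, n = 4 each, log2 fold change 0.12, SE 0.14), with overlapping groups. miR-743a-5p, which shares its seed, stood at 4005, 4626, 4246 and 3839 CPM in Trained 1 to 4, against 4287, 3595, 4405 and 3901 CPM in Exposed 1 to 4. The summed level of the AUUCAGA seed was 9495, 11631, 11130.1 and 9021 CPM in Trained 1 to 4, against 10935, 8913, 9657 and 9207 CPM in Exposed 1 to 4, with the highest value in Trained 2 and the lowest in Exposed 2.

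miR-470-5p, known in mouse embryonic stem cells for targeting messenger RNAs of pluripotency factors such as Nanog, was the steadiest of the 5 most abundant members. It stood at 8476, 9744, 8018 and 8775 CPM in Trained 1 to 4, against 9203, 8559, 8869 and 8709 CPM in Exposed 1 to 4. Its pooled SD within groups was 0.089 on the log2 scale, against 0.34 for miR-881-3p. The opposite arm miR-470-3p had only 13, 8, 5 and 7 counts in Trained 1 to 4 and 8, 7, 7 and 5 counts in Exposed 1 to 4, too few to be tested.

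miR-878-5p stood at 7402, 6399, 5265 and 7481 CPM in Trained 1 to 4, against 6334, 7712, 6327 and 6875 CPM in Exposed 1 to 4. It was lowest in Trained 3 and highest in Exposed 2, over a narrower range than miR-881-3p from the neighbouring hairpin. miR-878-3p, the minor arm, had 27, 20, 18 and 22 counts in Trained 1 to 4 and 11, 23, 14 and 16 counts in Exposed 1 to 4, and the largest fitted difference of the family (log2 fold change 0.25, SE 0.28, interval -0.37 to 0.88). That difference did not exceed the spread between libraries.

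miR-741-3p stood at 5649.6, 4803, 3917 and 5583 CPM in Trained 1 to 4, against 4246, 6046, 4044 and 5445 CPM in Exposed 1 to 4. It too was lowest in Trained 3 and highest in Exposed 2. Its minor arm miR-741-5p stood at 371, 265, 283 and 292 CPM in Trained 1 to 4, against 314, 268, 192 and 290.1 CPM in Exposed 1 to 4, with overlapping groups (log2 fold change 0.19, SE 0.19).

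miR-471-5p, described in mouse Sertoli cells as a regulator of autophagy genes used to clear dying germ cells, stood at 2883, 2547, 1955 and 2554 CPM in Trained 1 to 4, against 2344, 2753, 2075 and 2295 CPM in Exposed 1 to 4. Its other arm miR-471-3p stood at 587, 652, 794 and 605 CPM in Trained 1 to 4, against 723, 479, 600.1 and 482 CPM in Exposed 1 to 4. The arms went opposite ways in Trained 3, where miR-471-5p was lowest and miR-471-3p highest of the 8 libraries. miR-471-3p averaged 659.6 ± 93.9 CPM in Trained, against 571 ± 116 CPM in Exposed (SD, n = 4 each, log2 fold change 0.21, SE 0.17), the smallest unadjusted p of the family (0.255, edgeR). Its groups overlapped.

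Of the miR-883 hairpins, most reads came from miR-883a-3p, at 2356, 2839, 2654 and 2132 CPM in Trained 1 to 4, against 2563, 1905, 2389 and 2186 CPM in Exposed 1 to 4. The difference was small (log2 fold change 0.14, SE 0.13), and Exposed 2 was the lowest library. miR-883b-3p, with the same seed and 1 different base, ranged over 163 to 202 CPM in Trained and 145 to 232 CPM in Exposed. Over the shared seed AACUGCA the sums were 2547, 3034, 2856 and 2295 CPM in Trained 1 to 4, against 2795, 2097, 2581 and 2331 CPM in Exposed 1 to 4. The other arm miR-883a-5p had 1, 1, 3 and 1 counts in Trained 1 to 4 and 1, 1, 1 and 2 counts in Exposed 1 to 4, too few to be tested.

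The remaining members were lower. miR-743b-5p stood at 1649, 1730.1, 1680.0 and 1619 CPM in Trained 1 to 4, against 1807, 1546, 1781 and 1627 CPM in Exposed 1 to 4, with the smallest spread of all 20 tested members (pooled SD 0.081 on the log2 scale). miR-880-3p ranged over 794 to 1234 CPM in Trained and 1000.5 to 1264 CPM in Exposed, with its lowest value in Trained 3. miR-463-5p ranged over 426 to 595 CPM in Trained and 435 to 537 CPM in Exposed, and miR-463-3p over 218 to 427 CPM in Trained, against 269 to 436 CPM in Exposed. miR-883b-5p had 7 to 13 counts per library, and miR-742-5p 1 to 6 counts, too few to be tested.

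**Figure D2:**
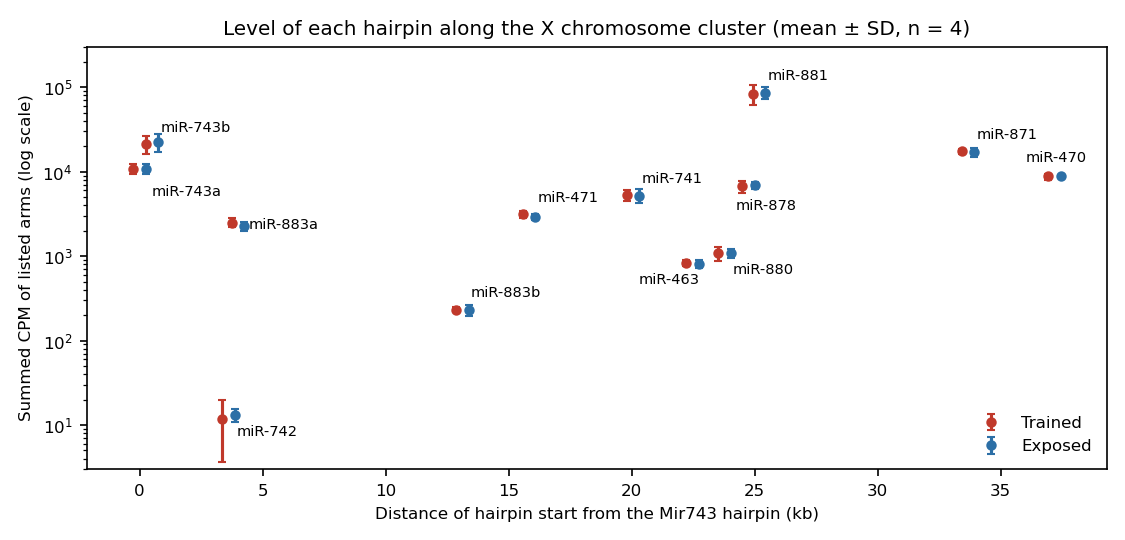
Summed CPM of the listed arms of each hairpin (log scale, mean ± SD, n = 4 libraries per group, Trained left in red, Exposed right in blue) against its distance in kb from the Mir743 hairpin. miR-881 stands at 83212 CPM in Trained, against 85891 CPM in Exposed, beside miR-878 at 6723 CPM in Trained, against 6885 CPM in Exposed, with their starts 0.436 kb apart.

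Neighbouring hairpins gave very different levels. Mir878 and Mir881 start 0.436 kb apart, and their hairpin sums were 6723 ± 1054 and 83212 ± 21810.5 CPM in Trained, against 6885 ± 681 and 85891 ± 14071 CPM in Exposed (SD, n = 4 each). Mir880 and Mir463, the next hairpins on that side, summed to 1090 ± 204 and 832 ± 66.7 CPM in Trained, against 1080 ± 123 and 809 ± 83.1 CPM in Exposed. Mir742 and Mir883a start only 0.385 kb apart and summed to 11.7 ± 8.09 and 2501 ± 314 CPM in Trained, against 13.2 ± 2.33 and 2267 ± 282 CPM in Exposed. Only the 5p arm of Mir742 and the 3p arms of Mir880 and Mir881 were counted here, so each of these sums is that of 1 arm.

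The Trained libraries were then set against the Exposed ones, a contrast that asks whether the treatments left a difference in these sperm miRNAs. Of the 23 members 20 had enough counts to be tested, and 0 of 20 passed a false discovery rate (FDR, p adjusted over all 226 tested miRNAs) of 0.05 by edgeR's quasi-likelihood test, against 0 of 226 in all (0%). Every member had FDR = 0.993 by edgeR. At an unadjusted p under 0.05 there were also 0 of 20, against 8 of 226 (3.54%). DESeq2 and limma-voom likewise gave 0 of 20 at either threshold, and over all miRNAs 0 at FDR 0.05, with 12 by DESeq2 and 8 by limma-voom at an unadjusted p under 0.05. In none of the 20 did the 4 Trained libraries all lie above or all below the 4 Exposed libraries, against 2.21% of all miRNAs tested. Fitted values were higher in Trained for 11 and lower for 9 of the 20 (63.3% of all miRNAs tested were higher), with fold changes between -0.06 for miR-743b-3p and 0.25 for miR-878-3p. The median was 0.01, beside 0.04 over all 226. TMM and upper quartile factors lowered the number of higher fitted values both in the family and over all miRNAs. Under TMM factors 9 members were higher and 11 lower, with 117 of all 226 higher. Under upper quartile factors 8 members were higher and 12 lower, with 93 of all 226 higher. The median half-width of the 95% interval was 0.36 on the log2 scale in the family. The narrowest interval was that of miR-743b-5p (-0.22 to 0.18) and the widest that of miR-883b-5p (-0.47 to 0.93).

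**Figure D3:**
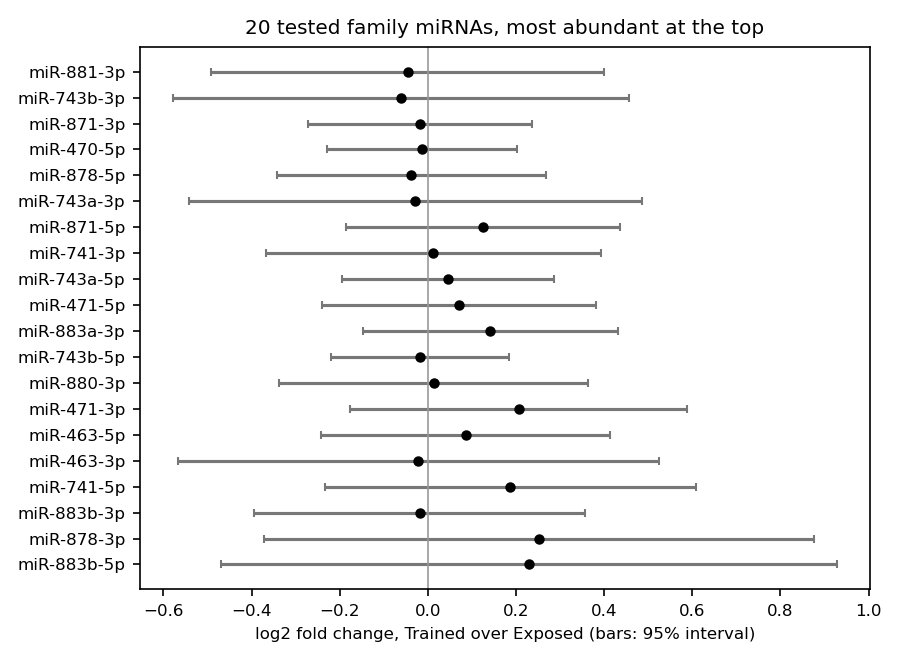
Log2 fold change, Trained over Exposed, of the 20 tested members with its 95% interval by edgeR, ordered from the most abundant at the top. All 20 intervals include 0, and the widest belong to miR-883b-5p and miR-878-3p.

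The split of directions rested on single libraries. Without Trained 3, 17 of 20 members had higher fitted values in Trained (median 0.11), where 53.7% of all miRNAs were higher. Without Exposed 2 it was 15 of 20 (median 0.10, against 60.7%), and leaving out any other single library gave 9 to 13 of 20. Without both it was 16 of 20 (median 0.17, against 48.9%), and miR-471-5p (0.25), miR-878-3p (0.62) and miR-880-3p (0.22) had an unadjusted p under 0.05, against 4.44% of all miRNAs, with 0 past FDR 0.05 (FDR = 0.734 by edgeR). Those libraries were set aside after the values were seen, and they hold the lowest and the highest family share. Leaving them out favours higher values in Trained by that choice. The counts and p-values without them are therefore no evidence of a difference between the groups. Of the 20 members, 14 turned sign without 1 of the 8 libraries. The same count over all tested miRNAs is not given here, so this is not shown to be particular to the family. miR-881-3p stood at 0.11 without Trained 3 and 0.06 without Exposed 2.

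Of the other miRNAs of the X chromosome, 7 tested miR-465 arms were split 3 higher and 4 lower in Trained. Their log2 fold changes had a median of -0.10. The lower arms include miR-465a-3p, miR-465b-3p and miR-465c-3p, which have 1 sequence and so do not count separately. Of the 226 tested miRNAs, 181 had a RefSeq match by name, and only these could be placed on a chromosome. A further 9 of those, with all their RefSeq entries on the X chromosome, were split 2 higher and 7 lower (median -0.08). This split misses any X-linked miRNA without a match, while the 63.3% that were higher covers all 226 tested miRNAs. None of these 16 passed FDR 0.05 or an unadjusted p under 0.05 by edgeR. The authors' deposited table gave the 23 members p-values between 0.456 and 0.997, with 10 higher and 13 lower in Trained. By the authors' deposited table, p was under 0.05 for 0 of these 23, against 20 of all 387 miRNAs.

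Arm use differed between hairpins, and its ranges overlapped between the groups for all 10 hairpins with both arms counted. Of these hairpins 6 gave more reads from the 3p arm (miR-741, miR-743a, miR-743b, miR-871, miR-883a and miR-883b) and 4 from the 5p arm (miR-463, miR-470, miR-471 and miR-878). The preference was near complete for miR-883a (3p 99.8% ± 0.134 in Trained and 99.7% ± 0.146 in Exposed, SD, n = 4 each), miR-470 (5p 99.6% ± 0.162 in Trained and 99.7% ± 0.0435 in Exposed) and miR-878 (5p 98.7% ± 0.112 in Trained and 99.0% ± 0.315 in Exposed). No test was made of these shares.

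The balance of arms was most open, and moved most between libraries, in miR-743a and miR-463. The 3p arm of miR-743a held 66.9, 57.0, 51.3 and 66.7% in Trained 1 to 4, against 55.2, 71.8, 55.3 and 64.3% in Exposed 1 to 4. The 5p arm of miR-463 held 51.6, 66.5, 71.2 and 53.4% in Trained 1 to 4, against 66.7, 52.1, 61.7 and 55.4% in Exposed 1 to 4. Trained 3 thus had the lowest 3p share of both hairpins, while Exposed 2 had the highest for miR-743a and Trained 1 the highest for miR-463. miR-471 varied in the same libraries, with a 5p share of 83.1, 79.6, 71.1 and 80.8% in Trained 1 to 4, against 76.4, 85.2, 77.6 and 82.6% in Exposed 1 to 4. For miR-871 the 3p share was 66.3, 61.6, 63.4 and 67.9% in Trained 1 to 4, against 65.1, 65.5, 71.2 and 65.5% in Exposed 1 to 4. Here the lowest share was in Trained 2 and the highest in Exposed 3, so the hairpins did not all shift in the same library.

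**Figure D4:**
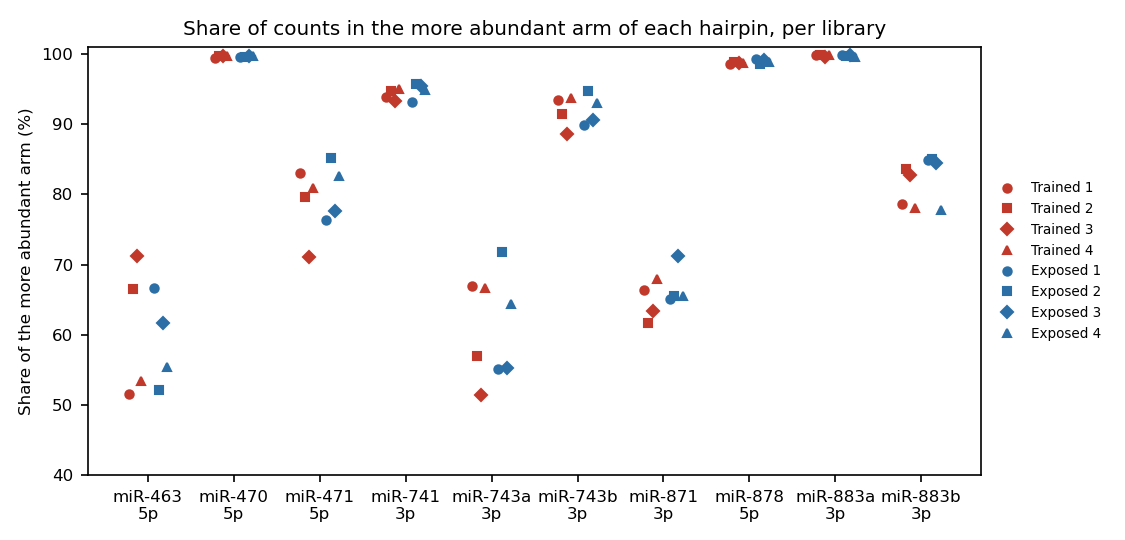
Share of counts (%) in the more abundant arm of the 10 hairpins with both arms counted, 4 Trained libraries in red to the left of 4 Exposed libraries in blue, with a marker shape per replicate number. The axis starts at 40%. miR-743a spans 51.3% to 71.8% and miR-463 51.6% to 71.2% over the 8 libraries, while miR-470, miR-878 and miR-883a stay above 98%.

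The members varied between libraries in a way that ran with the last bases of their sequence, a feature not used to choose them and examined after their values were seen. The 6 tested members that end in UAGA, as written above, are miR-881-3p, miR-743b-3p, miR-743a-3p, miR-741-3p, miR-880-3p and miR-878-3p. All are 3p arms, and miR-743a-3p and miR-743b-3p are near-identical, so the 6 are not separate cases. All 6 lay below the mean of the other Trained libraries in Trained 3, by 0.40 to 0.75 on the log2(CPM + 1) scale, and all 6 were highest of the 8 libraries in Exposed 2. Of the 7 tested members that end in U, 6 lay above the mean of the other Trained libraries in Trained 3, and 5 lay below the other Exposed libraries in Exposed 2. The exception in Trained 3 was miR-470-5p (-0.16). The 3p arms among these 7 are miR-471-3p, miR-871-3p, miR-883a-3p and miR-883b-3p.

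**Figure D5:**
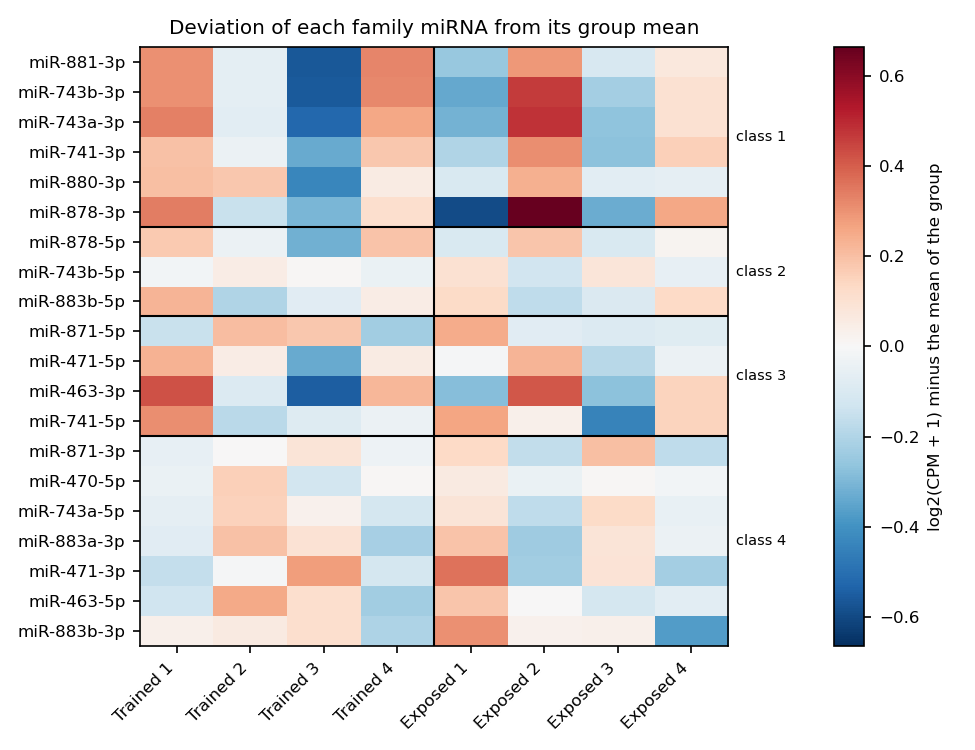
Deviation of each tested member from the mean of its group, as log2(CPM + 1), in 4 Trained (left) and 4 Exposed (right) libraries, blue below and red above the mean. Class 1 holds the members that end in UAGA, class 2 the others that end in A, class 3 those that end in C or G, and class 4 those that end in U. Class 1 is low throughout in Trained 3 and high throughout in Exposed 2.

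Pairs of near-alike sequences with different last bases went both ways, and they were looked at after their values were seen. miR-741-3p and miR-471-3p differ at 4 of the first 22 bases (A4G, G7A, A14U and U22G, from miR-471-3p to miR-741-3p), of which A4G and G7A lie in the seed, and miR-741-3p has 1 base more. In Trained 3 they stood at -0.44 for miR-741-3p and 0.37 for miR-471-3p, relative to the other Trained libraries. In Exposed 2 they stood at 0.41 for miR-741-3p and -0.31 for miR-471-3p, relative to the other Exposed libraries. miR-743a-5p, which ends in U, and miR-743b-5p, which ends in A, differ at 5 of the first 21 bases and moved alike. They stood at 0.04 for miR-743a-5p and 0.01 for miR-743b-5p in Trained 3, and at -0.22 and -0.17 in the same order in Exposed 2. miR-871-5p ends in G and differs from miR-743a-5p at 2 of 22 bases. It went the same way, at 0.24 in Trained 3 and -0.10 in Exposed 2. miR-741-5p also ends in G and differs from miR-743a-5p at 5 of 22 bases. It went the other way, at -0.12 in Trained 3 and 0.05 in Exposed 2. The members that end in other bases were mixed. miR-463-3p (-0.73 in Trained 3), miR-471-5p (-0.44) and miR-878-5p (-0.43) went with the first set, and miR-871-5p (0.24) with the second. miR-883b-5p followed neither, at -0.10 in Trained 3 and -0.22 in Exposed 2.

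miRNAs outside the family showed the same libraries apart. miR-465a-3p, miR-465b-3p and miR-465c-3p, which have 1 sequence and also end in UAGA, were lowest in Trained 3, at 6361 CPM for miR-465b-3p against 8646 to 11088 CPM in the other Trained libraries. Outside the family and miR-465, none of the 154 tested miRNAs with a sequence ended in UAGA. Of the 67 among them that end in U, 53 lay above the other Trained libraries in Trained 3 (median 0.28), and 52 lay below the other Exposed libraries in Exposed 2 (median -0.25). Of the 58 that end in C or G, 29 lay above the other Trained libraries in Trained 3 and 22 lay below the other Exposed libraries in Exposed 2. Of the 29 that end in A, 17 lay above the other Trained libraries in Trained 3 and 8 lay below the other Exposed libraries in Exposed 2. Over all 181 tested miRNAs with a sequence, 109 lay above the other Trained libraries in Trained 3 and 93 below the other Exposed libraries in Exposed 2, and 51 were highest of the 8 libraries in Exposed 2. These counts describe the libraries and carry no test.

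The median spread between libraries of the same group was near that of other miRNAs. The pooled SD on the log2(CPM + 1) scale had a median of 0.21 over the 20 tested members, beside 0.25 over all 226. Among miRNAs at 1000 CPM or more it was 0.20 for 13 members, beside 0.18 for 83 miRNAs. Abundant members lay on both sides of these medians. miR-881-3p had 0.34 and miR-743a-3p 0.38, against 0.14 for miR-871-3p and 0.089 for miR-470-5p. The pooled SD was largest for miR-878-3p (0.45), the least abundant of those that end in UAGA, and next for miR-743b-3p (0.39) and miR-463-3p (0.38).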

How the data were processed

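Small RNA of mouse sperm was sequenced in 4 Trained and 4 Exposed libraries, with miRNeasy extraction and 50 nt single-end reads per the labels. For trimming, aligner, miRNA reference, genome build and multiply mapped reads, the sources used here give nothing. The authors deposited 1 table of raw read counts per mature miRNA with their own log2 fold change, log2 CPM, likelihood ratio score, p-value and FDR, and the submitters' processing notes name edgeR. Genome positions are those of the hairpin of the same name in RefSeq (GRCm38.p6).

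Counts were scaled by library total and tested with edgeR 4.0.16 (robust quasi-likelihood, filterByExpr by group, Benjamini-Hochberg over the 226 miRNAs kept, FDR 0.05) in R 4.3.3. The 161 miRNAs left out held 0.258% of counts. SDs of log2 values used log2(CPM + 1). Counting error alone did not account for replicate differences (chi-square per degree of freedom 3.87 to 72.8). No libraries were near-duplicates. DESeq2 1.42.0, limma 3.58.1 (voom), other scalings and filters, and leaving out libraries served as alternatives. The test was tried on simulated data. Members and marker lists were chosen with earlier results of these data known. Values in every library are given for the 10 most abundant members, the 3 with the smallest p on each side and the other arms of their hairpins, and the other members by range.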

Additional observations from a re-analysis of the deposited data

Results flagged for a closer look

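In 6 of 68 groups of 4 libraries examined, 1 library lay apart from the other 3 beyond Dixon's 95% critical value, and chance flags about 1 group in 20. miR-871-5p had 6648 CPM in Exposed 1, against 5252 to 5318 CPM in the other Exposed libraries. miR-880-3p had 1264 CPM in Exposed 2, against 1000.5 to 1031 CPM in the others. The 3p arm of miR-871 held 71.2% of its hairpin's counts in Exposed 3, against 65.1% to 65.5% in the others. The 3p arm of miR-883b held 77.8% in Exposed 4, against 84.5% to 85.1% in the others. miR-883a-5p had 11.5 CPM in Trained 3, against 3.84 to 4.17 CPM in the other Trained libraries, and 10.4 CPM in Exposed 4, against 3.92 to 4.79 CPM in the other Exposed libraries. Those are differences of 1 or 2 reads.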

How the results depend on the processing

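No setting called any of the 20 tested members, or any of all miRNAs tested, at FDR 0.05. Signs of fold changes near 0 were not stable, and the cause was not tested. miR-741-3p stood at -0.019 under TMM factors, -0.019 under RLE factors, -0.018 by DESeq2 and -0.047 under upper quartile factors. miR-880-3p stood at -0.020 under TMM factors, -0.018 under RLE factors, -0.018 by DESeq2, -0.051 under upper quartile factors and -0.0013 by limma-voom. miR-743a-5p stood at -0.029 under upper quartile factors. Deviations of same-numbered libraries correlated at 0.66, 0.69 and 0.49 for numbers 2 to 4 and at -0.41 for number 1. Without such values for libraries of different numbers, these do not decide whether the numbers mark a pairing. The main fit did not use them as one. With the replicate block 0 miRNAs were called, 11 had an unadjusted p under 0.05, the smallest edgeR FDR was 0.828, and miR-880-3p stood at -0.0010. Without Trained 3 and Exposed 2 together, a choice made after seeing the data, the log2 fold change was 0.21 for miR-881-3p, 0.27 for miR-743b-3p, 0.011 for miR-470-5p, 0.12 for miR-878-5p, 0.30 for miR-743a-3p, -0.014 for miR-743a-5p and 0.29 for miR-463-3p. Without 1 library at a time, the fold changes that turned sign ran from -0.15 to 0.11 for miR-881-3p, -0.17 to 0.12 for miR-743b-3p, -0.073 to 0.051 for miR-871-3p, -0.069 to 0.026 for miR-470-5p, -0.10 to 0.059 for miR-878-5p, -0.14 to 0.16 for miR-743a-3p, -0.073 to 0.12 for miR-741-3p, -0.0066 to 0.089 for miR-743a-5p, -0.0090 to 0.17 for miR-471-5p, -0.058 to 0.016 for miR-743b-5p, -0.052 to 0.14 for miR-880-3p, -0.0038 to 0.16 for miR-463-5p, -0.17 to 0.13 for miR-463-3p and -0.12 to 0.091 for miR-883b-3p. Depth limits the least abundant members, since 1 read is worth up to 5.18 CPM and miR-883b-5p had 7 to 13 reads per library.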
